A study of Homo sapiens with 3 samples.

Results

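The regions described here are the XPB and XPD peaks on human chromosome 17 whose summit lies above position 2000000 of the hg19 build. Membership was set by position alone, and 2201 of the 36125 listed peaks qualified: 1291 of 21555 XPB peaks and 910 of 14570 XPD peaks. Another 35 XPB and 15 XPD peaks lay at or below the 2 Mb bound. The nearest excluded XPB summit was at 1994683 (15 fragments, score 259.13) and the first included one at 2022793 (10 fragments, score 201.11). For XPD these were at 1974911 (16 fragments, score 521.79) and at 2075982 (13 fragments, score 184.66).

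The peaks come from chromatin immunoprecipitation and sequencing (ChIP-seq) of HT1080 cells, an established human fibrosarcoma line, for which the labels give no treatment. A rabbit polyclonal antibody against XPB gave 1 library and a rabbit polyclonal antibody against XPD gave 1 library, both from a single pool of crosslinked chromatin. An input library without enrichment is the other sample of the series, and no peak list of it was used here. The protocol text shared by all samples names a monoclonal antibody against another protein, CSB, whereas the antibody field of each ChIP names XPB or XPD, and that field was followed.

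XPB and XPD are the helicase subunits of TFIIH, a general transcription factor that is also a core factor of nucleotide excision repair. In transcription, TFIIH joins RNA polymerase II at promoters, where the translocase activity of XPB opens the DNA around the start site. In repair, XPD unwinds the DNA around a lesion while XPB anchors the complex. Chromosome 17 is one of the gene-rich human chromosomes, with gene-dense and gene-poor stretches on both arms. Whether the peaks follow gene density was not tested. No hg19 annotation or sequence was used here, so the peaks are given by position, and no gene is assigned to any of them.

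Each peak carries a summit height, the number of fragments piled up at its highest point, and a score, which in the usual layout of the caller is -10 times the log10 of its p-value. Heights are not scaled to library size, and the lists do not tell how many reads each library had. With 1 library for each antibody, no difference between antibodies, arms or chromosomes has a replicate check, and no p-value is given. Bracketed ranges on shares and density ratios are exact 95% binomial intervals. They cover counting error only and are narrower than the true error, because neighbouring peaks are not independent.

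Chromosome 17 was dense in peaks of both helicases. It held 16.3 XPB peaks per Mb, against 7.47 per Mb over the other 21 autosomes, a ratio of 2.18 (2.06 to 2.31). For XPD it held 11.5 peaks per Mb, against 5.04 per Mb over the other autosomes, a ratio of 2.28 (2.13 to 2.44). Among the 22 autosomes chromosome 17 ranked the third in both lists, behind chromosome 22 (19.6 XPB and 13.1 XPD peaks per Mb) and chromosome 19 (18.3 and 13.0). The lowest autosomal densities were 2.72 for XPB and 1.74 for XPD. XPB peaks outnumbered XPD peaks 1.42 times (1.30 to 1.55) on chromosome 17 and 1.48 times on the other autosomes. The copy number of chromosome 17 in these cells was not measured, so its part in the density was not tested.

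The peaks were spread very unevenly along the chromosome. From 2 Mb to the last summit at 81150698 there were 80 windows of 1 Mb, which held 0 to 44 XPB peaks (mean 16.1, median 14) and 0 to 38 XPD peaks (mean 11.4, median 10). The 10 fullest windows of each list held 28.2% of the XPB peaks and 28.6% of the XPD peaks. Leaving out the 3 windows at the centromere, the XPB and XPD numbers had a Spearman's rho of 0.93 across 77 windows, a description of windows that share the same chromatin pool. XPB peaks outnumbered XPD peaks in 65 windows, XPD peaks outnumbered XPB peaks in 6, and 4 windows held equal numbers above 0.

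The densest window of either list was 48 to 49 Mb on the long arm, with 44 XPB and 38 XPD peaks. After it, the highest XPB numbers were 37 at 73 to 74 Mb, 37 at 75 to 76 Mb, and 36 each at 41 to 42, 42 to 43 and 76 to 77 Mb. The highest XPD numbers after the first were 30 at 42 to 43 Mb, 29 at 73 to 74 Mb, 27 at 40 to 41 Mb and 25 at 38 to 39 Mb. In all, 12 windows reached 2 times the XPB mean. The 7 windows that did so for XPD were all among these 12. Of the 12, only those at 7 to 8 Mb (35 XPB and 20 XPD peaks) and 17 to 18 Mb (34 and 22) were on the short arm, and neither reached 2 times the mean of XPD.

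**Figure D1:**
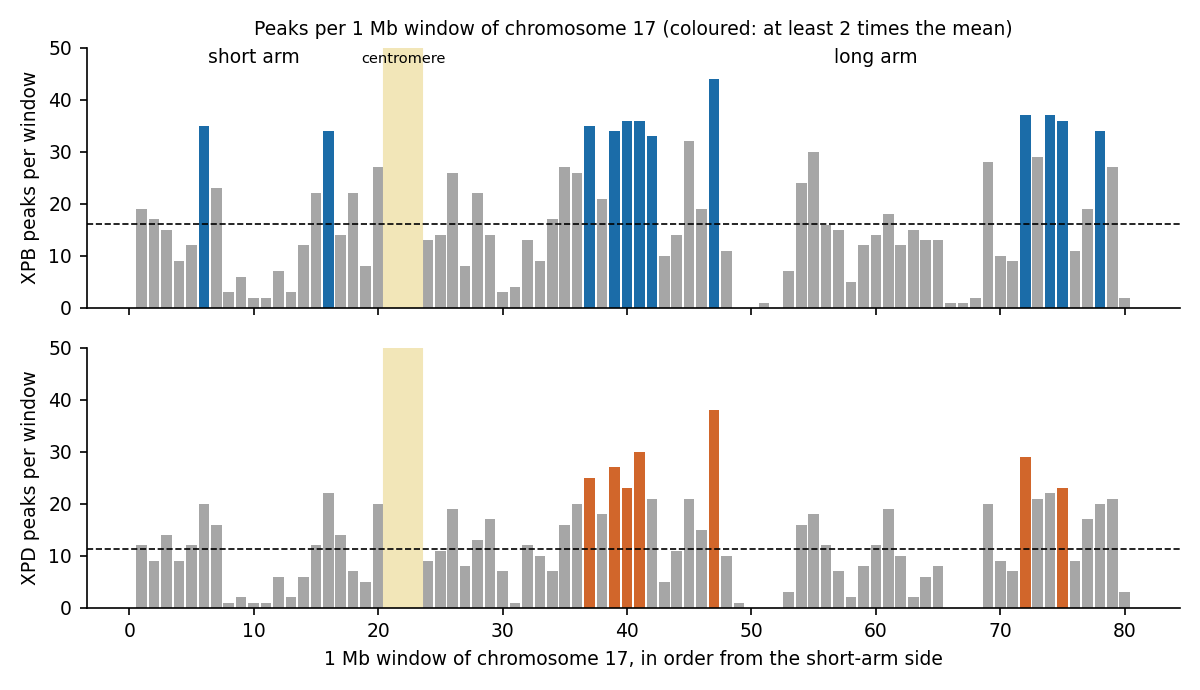
Number of XPB peaks (top) and XPD peaks (bottom) in each 1 Mb window of chromosome 17, numbered from the window that starts at 2 Mb; the dashed line is the mean over 80 windows, coloured bars reach at least 2 times that mean, and the shaded band marks the 3 windows at the centromere. The profiles have the same outline, with the highest bar of both at 44 XPB and 38 XPD peaks.

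Windows above the mean of both lists formed runs, and the longer runs were on the long arm. On the short arm the longest were 2 windows each, from 7 to 9 Mb (58 XPB and 36 XPD peaks) and from 16 to 18 Mb (56 and 34). The longest run on the chromosome had 8 adjoining windows, from 36 to 44 Mb, with 21 to 36 XPB and 16 to 30 XPD peaks in each. Not all of these reached 2 times the mean. At that level the longest run was 4 windows for XPB, from 40 to 44 Mb, and 3 for XPD, from 40 to 43 Mb. The 8 windows held 248 XPB peaks (19.2% of the chromosome's) and 180 XPD peaks (19.8%). Another run above both means, 4 windows from 73 to 77 Mb, held 139 XPB and 95 XPD peaks. A run of 3 from 46 to 49 Mb, which contains the densest window, held 95 and 74.

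Other stretches were almost bare. No peak of either list lay in the 3 windows from 22 to 25 Mb at the centromere, and outside them 2 windows were empty in both lists, 51 to 52 Mb and 53 to 54 Mb. These belong to a stretch of 4 windows from 50 to 54 Mb with 1 XPB and 1 XPD peak in total. It begins directly after the above-mean run at 46 to 49 Mb and the window at 49 to 50 Mb (11 XPB and 10 XPD peaks). The windows from 67 to 69 Mb held 2 XPB peaks and no XPD peak. The largest distance between neighbouring summits of either list was 3.47 Mb across the centromere. The next were 2.94 Mb, from 50039250 to 52978541, and 1.80 Mb, from there to 54776649. The largest on the short arm was 1.02 Mb, from 11726357 to 12743998. Outside the centromere, a window without a listed peak is one in which no site passed the caller's threshold at an unknown depth, not one shown to lack TFIIH. Whether reads could be placed in the 3 centromere windows was not tested, and the window means include them.

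The proportion of the lists varied from window to window. Among windows with at least 20 peaks in all, XPB made up the largest share at 19 to 20 Mb, with 22 XPB and 7 XPD peaks (75.9%, 56.5 to 89.7). It made up the smallest at 30 to 31 Mb, with 14 XPB and 17 XPD peaks (45.2%, 27.3 to 64.0). Even these extremes, picked after their values were seen, had intervals that overlapped each other.

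The short arm, taken from 2 to 22 Mb, was less dense in peaks than the long arm, taken from 25 Mb to the last summit. It held 292 XPB peaks, 14.6 per Mb, against 999 on the long arm, 17.8 per Mb, a ratio of 0.821 (0.718 to 0.936). For XPD it held 191 peaks, 9.55 per Mb, against 719 on the long arm, 12.8 per Mb, a ratio of 0.746 (0.632 to 0.876). With only scores of at least 300, the XPB ratio was 0.741 (0.516 to 1.04) and the XPD ratio 0.936 (0.619 to 1.38), and both intervals then included 1. At scores of at least 200 the XPD interval did so too, with a ratio of 0.802 (0.620 to 1.03), while the XPB ratio was 0.698 (0.568 to 0.852). The XPB to XPD ratio in number was 1.53 on the short arm and 1.39 on the long arm.

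Peaks of the arms resembled each other in size. The median summit height was 11 fragments on either arm for XPB and 13 on either arm for XPD. The median XPB score was 189 on the short arm and 199 on the long arm, and the median XPD score was 187 on both. The median width was 827 bp on the short arm and 889 bp on the long arm for XPB, and 936 bp on the short arm and 957 bp on the long arm for XPD. Of the short-arm XPB peaks 27.4% (22.4 to 32.9) overlapped an XPD peak, and of the long-arm ones 29.5% (26.7 to 32.5), where 26.6% of XPB peaks on all chromosomes did. Of the short-arm XPD peaks 39.8% (32.8 to 47.1) overlapped an XPB peak, and of the long-arm ones 40.2% (36.6 to 43.9), where 38.7% did on all chromosomes. The arms' intervals overlap for both lists.

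Most peaks on chromosome 17 were low, as elsewhere. Heights ran from 6 to 417 fragments for XPB (median 11, interquartile range 9 to 13) and from 7 to 317 for XPD (median 13, 11 to 15). The medians over the other autosomes were also 11 and 13. Summits of at least 20 fragments made up 6.51% of the XPB peaks (84 of 1291), against 6.64% over all chromosomes, and 8.90% of the XPD peaks (81 of 910), against 8.74%. At this cut the shares were close to the background for both proteins. Summits of at least 50 fragments were rare but more frequent than over all chromosomes. They made up 0.775% of the XPB peaks (10 peaks, 0.372 to 1.42), against 0.343%. For XPD they made up 1.21% (11 peaks, 0.605 to 2.15), against 0.556%. Both intervals lie above the background but rest on few peaks, and they are not independent. Of the 10 tallest summits of each list, 7 sites were in both.

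High scores were more frequent than over all chromosomes in the XPD list, and near that level in the XPB list. Scores of at least 300 were given to 206 XPB peaks on chromosome 17, 16.0% (14.0 to 18.1), where 14.3% of all XPB peaks reach that score, a value inside the interval. They were given to 140 XPD peaks, 15.4% (13.1 to 17.9), where 11.9% of all XPD peaks do, and this was the highest share of the 22 autosomes. For XPB the share ranked 4 among the autosomes. In the top 1% by score, chromosome 17 had 19 XPB peaks (1.47% of its list, against 0.997% overall) and 13 XPD peaks (1.43%, against 0.995%). The intervals on these last shares, 0.888 to 2.29 and 0.763 to 2.43, include the background. Only 1 autosome was compared with the rest in a single pair of libraries, so none of these shares is shown to be particular to chromosome 17.

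Score followed width as much as height. Across the 1291 XPB peaks Spearman's rho of the score was 0.48 with height and 0.51 with width, and across the 910 XPD peaks 0.45 and 0.48. The widest XPB peaks illustrate this. The one from 48139037 to 48142491, 3455 bp wide with a summit of 18 fragments, scored 1254.4, and its XPD counterpart, 3323 bp wide with 16 fragments, scored 1035.4. The one from 8124589 to 8127974 had 19 fragments and a score of 1578.4, and its XPD counterpart, the widest XPD peak of the chromosome at 3869 bp, had 26 fragments and a score of 1182.5. Peaks at least 2 kb wide were few, 22 for XPB (1.70%, against 1.18% overall) and 24 for XPD (2.64%, against 2.27%).

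The strongest sites of chromosome 17 were common to both helicases. The 10 tallest summits of each list all belonged to peaks with a partner in the other list, and 7 sites made up part of both sets, with XPB and XPD summits at most 72 bp apart. Strong peaks mostly had partners elsewhere too. On the other autosomes 87.5% of XPB and 97.0% of XPD peaks scoring at least 400 did, a cut by score and not by height. Such sharing is thus not shown to be particular to chromosome 17. The tallest site of chromosome 17 was on the long arm from 41438036 to 41439127. It had 417 XPB and 317 XPD fragments, and both lists gave it the highest possible score of 3100. The next by XPB height was on the short arm from 18966850 to 18967394, where XPB had 181 fragments at the ceiling score and XPD had 98 at a score of 1633.1. Its summits were 1 bp apart. At the site from 39834028 to 39835446 the XPB summit held 168 fragments and the XPD summit 195, at 6 bp from each other.

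The other 4 sites in both sets were also on the long arm. From 41392773 to 41393718 there were 85 fragments for XPB and 94 for XPD, and from 41399906 to 41401355 there were 55 and 60. From 33569253 to 33570863 there were 75 and 60, and from 62222930 to 62224097 there were 50 and 75. The first pair of these, with the tallest site, lie within 50 kb of each other.

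The remaining tallest summits were in only 1 of the sets but had partners all the same. Those of XPB were on the long arm. From 33477944 to 33478492 there were 57 XPB and 43 XPD fragments, from 49230568 to 49231263 there were 52 and 25, and from 40925274 to 40925890 there were 50 and 40. Those of XPD were on the short arm. From 8075826 to 8077634 there were 37 XPB and 65 XPD fragments, from 21902992 to 21903418 there were 46 and 53, and from 16341556 to 16343167 there were 42 and 52. No input values were at hand for these sites, so how much of each summit is present without enrichment was not tested.

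The surroundings of the tallest site held a group of summits. Within 50 kb of it the XPB list had 11 peaks and the XPD list 9, and of these 8 XPB and 7 XPD peaks overlapped the other list. The sites at -45470 and -37965 bp from it, on the short-arm side, had the 85 and 55 XPB fragments given above. A site 6799 bp to its long-arm side, from 41444800 to 41446326, had 20 XPB and 47 XPD fragments. Between and beyond these the summits were low, from 7 to 12 fragments for XPB and from 10 to 19 for XPD. The tallest peak itself had a low neighbour 863 bp away in the XPB list (9 fragments), matched in the XPD list (10 fragments).

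**Figure D2:**
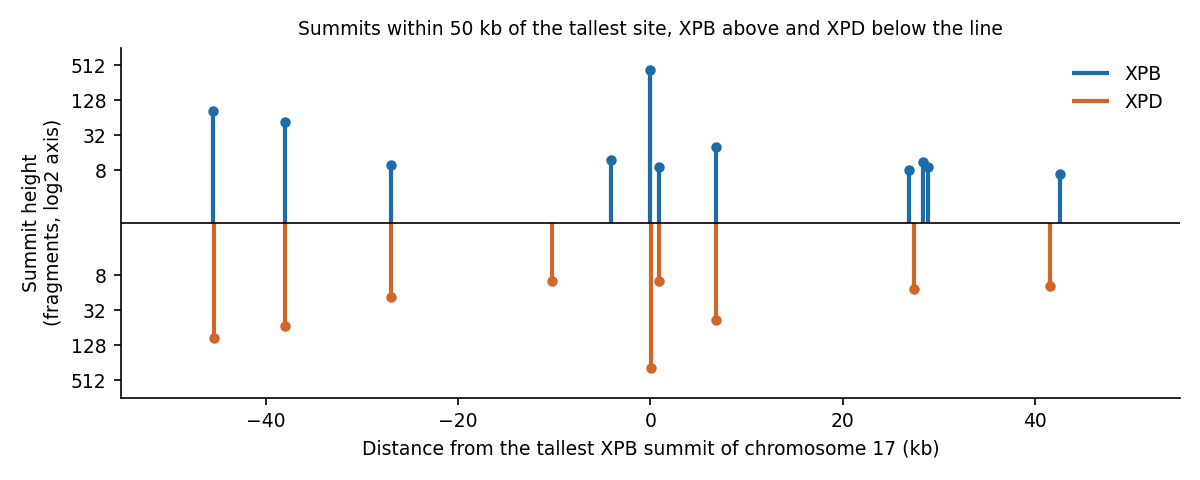
Summit heights (fragments, log2 axis) of XPB peaks (above the line) and XPD peaks (below the line) against their distance in kb from the tallest XPB summit of chromosome 17. The tallest sites coincide in both lists, at 417 XPB and 317 XPD fragments in the centre and 85 and 94 on the left.

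A minority of the peaks on chromosome 17 had a partner in the other list. Of the XPB peaks 375 of 1291 overlapped an XPD peak, 29.0% (26.6 to 31.6), against the 26.6% over all chromosomes. Of the XPD peaks 365 of 910 overlapped an XPB peak, 40.1% (36.9 to 43.4), against the 38.7% over all chromosomes. The XPD share was close to the background. The XPB share was above it by little more than the counting error, and ranked 4 among the 22 autosomes, whose shares ran from 18.3% to 35.7%. The order of these shares changed in 1 setting. With the XPB list shortened to the genome-wide length of the XPD list, 14570 peaks, by leaving out its lowest scores, the shares on chromosome 17 were 37.1% for XPB and 36.0% for XPD. Length and score floor change together in this setting and cannot be told apart.

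Partners became more frequent with score. Of XPB peaks scoring from 150 to under 180, 11.3% (8.66 to 14.4) had an XPD partner. The share was 27.9% at 200 to under 250, 66.4% at 300 to under 400 and 85.9% (77.4 to 92.0) at 400 and above. For XPD the same steps gave 21.99% (17.99 to 26.4), 42.4%, 91.1% and 95.1% (86.3 to 99.0). On the other autosomes the XPB shares in these steps were 12.0, 24.7, 60.9 and 87.5%. The XPD shares there were 22.9, 44.0, 79.0 and 97.0%. The intervals for chromosome 17 included the value of the other autosomes in every score class of both lists except XPD peaks of 300 to under 400, of which 72 of 79 had a partner (82.6 to 96.4).

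**Figure D3:**
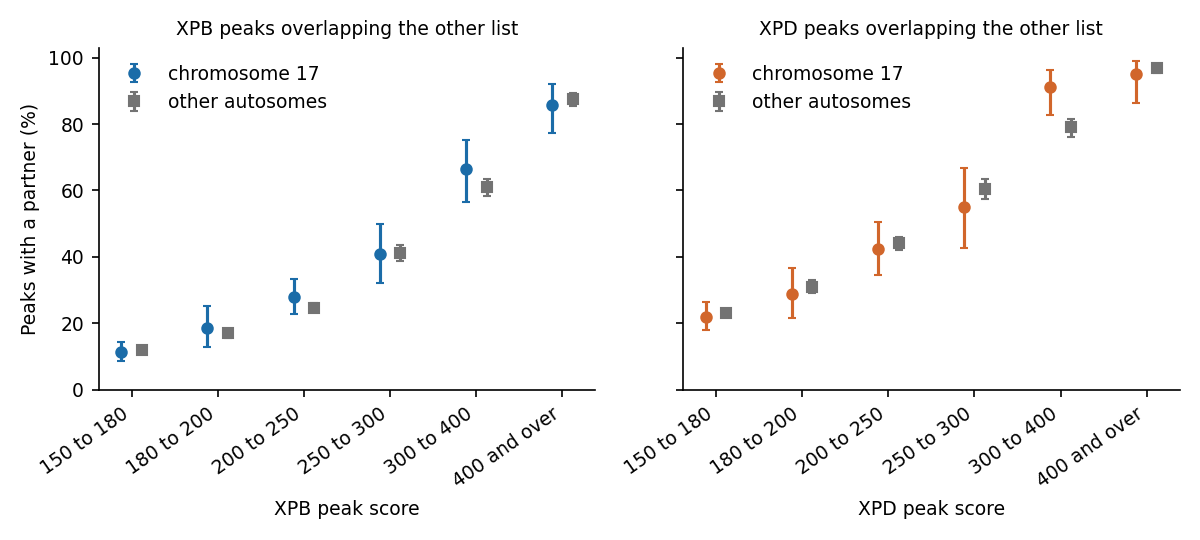
Percentage of XPB peaks (left) and XPD peaks (right) that overlap the other list, by peak score, on chromosome 17 (circles) and the other autosomes (squares), with exact 95% binomial intervals. The shares climb with score from 11.3% to 85.9% for XPB and from 21.99% to 95.1% for XPD on chromosome 17, close to the other autosomes in all but 1 class.

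Peaks with a partner were the stronger ones. The 375 XPB peaks with a partner had a median height of 13 fragments and a median score of 267, against 10.5 fragments and 181 for the 916 without. The 365 XPD peaks with a partner had 14 fragments and a score of 240, against 12 fragments and 175 for the 545 without. A score of at least 300 was found in 156 XPB peaks with a partner and 50 without, and in 130 XPD peaks with a partner and 10 without. The median width was 1000 bp for XPB peaks with a partner and 827 bp for those without, and 1064 and 902 bp for XPD. The part of width in the partner shares was not tested.

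Partners were also more frequent in the dense windows. In the 12 windows that reached 2 times the XPB mean, 34.3% (29.9 to 39.0) of XPB peaks had a partner, against 26.4% (23.5 to 29.5) in the other 68. For XPD the shares were 47.7% (41.9 to 53.5) in the 12 windows and 36.4% (32.6 to 40.4) in the others. Scores of at least 300 were more frequent there as well, 19.3% against 14.3% of XPB peaks and 20.3% against 13.0% of XPD peaks. Where peaks lie closer together more of them overlap by position alone, and the part of this in the shares was not tested.

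The peaks with the highest scores and no partner were mostly broad rather than tall. For XPB the first was from 37308564 to 37311197, 2634 bp wide, with 18 fragments and a score of 699.5. It lay 24.7 kb from the nearest XPD summit. The next, from 69971247 to 69972746, had 16 fragments and a score of 690.4, and the nearest XPD summit was 145 kb away. The peak from 80255123 to 80256540 scored 568.8 with 17 fragments, and that from 17348352 to 17350999 scored 517.1 with 15.

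A narrow XPB peak of 444 bp was an exception to this pattern. Located from 18965258 to 18965701, it reached 37 fragments, the tallest of the XPB peaks without a partner, and a score of 647.2. It lies 1564 bp from the summit of 181 fragments described above, at which XPD had 98. The XPD list held no peak over the smaller summit.

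Among XPD peaks without a partner the highest score was 573.0, from 48738423 to 48739960 in the densest window, with 17 fragments and an XPB summit 6451 bp away. The others of the highest 5 were from 38176058 to 38179050 (10 fragments, score 467.6), from 45966166 to 45967857 (16 fragments, 401.4), from 46095139 to 46096337 (14 fragments, 338.5) and from 2185758 to 2187281 (16 fragments, 330.9). Their scores were below those of the corresponding XPB peaks, but scores were not compared between antibodies as levels.

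Many peaks without a partner lay in the same neighbourhood as a peak of the other list. An XPD summit lay within 10 kb of 307 of the 916 XPB peaks without a partner, 33.5% (30.5 to 36.7), and an XPB summit within 10 kb of 225 of the 545 such XPD peaks, 41.3% (37.1 to 45.5). On the other autosomes they were 28.4% and 36.4%. The median distance to the nearest summit of the other list was 18.9 kb for XPB and 12.4 kb for XPD, against 26.5 kb and 17.3 kb on the other autosomes, where peaks are sparser.

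At shared sites the summits often coincided. Each XPB peak was paired with the XPD peak it overlapped most where the choice was mutual, which gave 359 pairs on chromosome 17, 74 on the short arm and 285 on the long arm. Within a pair the median distance from the XPB to the XPD summit was 86 bp, the middle part of the pairs spanned 21 to 387 bp between quartiles, and the highest distance was 1581 bp. They were within 100 bp in 188 pairs, 52.4% (47.1 to 57.6), where 50.7% of all pairs of the genome are. On the other autosomes the median was 98 bp. Scores of at least 300 in both lists were found in 89 pairs, 24.8% of the chromosome's pairs against 18.8% over all chromosomes. Of these 89, 66.3% (55.5 to 76.0) had summits within 100 bp, and the median was 33 bp. In such pairs on the other autosomes the share was 63.1%, inside that interval, and the median 52 bp. Library fragments of 400 to 700 bp were selected, per the labels' protocols, which limits how finely distances can be read.

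A part of the pairs had summits farther apart, at a share close to that elsewhere. In 58 pairs, 16.2% (12.5 to 20.4), the XPB and XPD summits were more than 500 bp apart. On the other autosomes 15.2% of pairs were, a value inside that interval. The largest separation was 1581 bp, in the XPB peak from 40670221 to 40673266, where the XPB summit had 24 fragments and the XPD summit 21. The median distance was 68.5 bp on the short arm and 89 bp on the long arm. Separations over 500 bp made up 9.46% (3.89 to 18.5) of short-arm and 17.9% (13.6 to 22.8) of long-arm pairs, with overlapping intervals.

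Heights at shared sites followed each other. Spearman's rho between XPB and XPD heights was 0.60 across the 359 pairs, a description of sites from a common chromatin pool with a score floor in both lists. On the other autosomes it was 0.59 across 5158 pairs. The median log2 ratio of XPB to XPD height was -0.08 (quartiles -0.34 and 0.24; depth was not adjusted for), and -0.11 on the other autosomes. XPB had the taller summit in 143 pairs and XPD in 187, and 29 were equal. In the 89 pairs with scores of at least 300 in both lists the median was 0.0, with XPB the taller in 44 and XPD in 43. The 95% interval of the median over all 359 pairs ran from -0.13 to 0.0. It treats the pairs as independent and describes the spread of sites within 1 library per antibody. As depth was not adjusted for, it cannot show whether the antibodies differ or are equal.

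**Figure D4:**
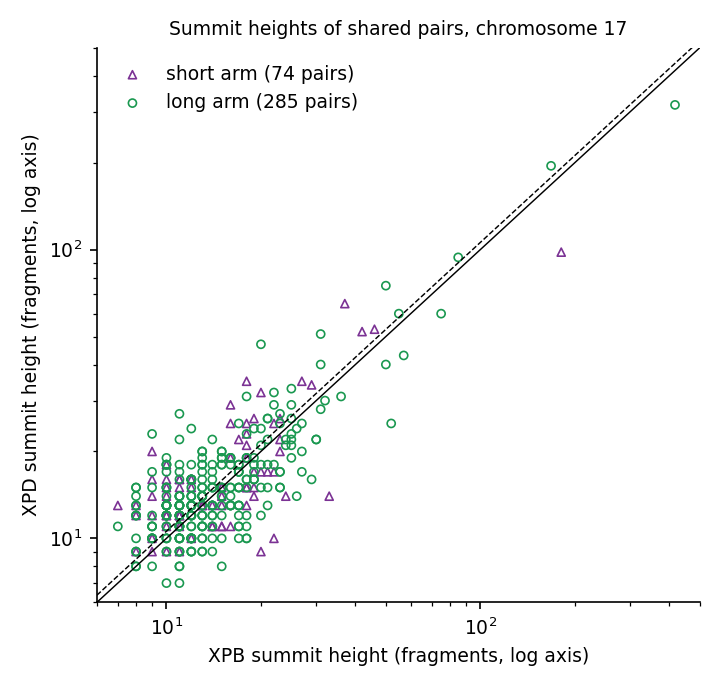
Summit heights in fragments (both axes logarithmic) of the 359 shared pairs of chromosome 17, with short-arm pairs as triangles and long-arm pairs as circles; the solid line marks equal heights and the dashed line the median ratio. Most pairs lie below 20 fragments in both lists, and the tallest point is at 417 XPB and 317 XPD fragments.

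Few tall pairs departed from the common ratio. Of 48 pairs in which neither summit was below 20 fragments, 2 were more than 2-fold away from the median ratio of the chromosome, 4.17%, where 1.19% of such pairs over all chromosomes are that far from the genome's median ratio. The first is the site beside the tallest one, from 41444800 to 41446326, with 20 XPB and 47 XPD fragments. Its log2 ratio relative to the median was -1.15 (95% counting interval -1.98 to -0.37). The second, from 49230568 to 49231263, had 52 XPB and 25 XPD fragments, which puts it at 1.14 (0.42 to 1.89) on the same scale.

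The next 3 departures were smaller. The site from 18966850 to 18967394 had 181 XPB and 98 XPD fragments, 0.97 (0.61 to 1.34) relative to the median. From 8076572 to 8077278 there were 37 and 65, -0.73 (-1.35 to -0.13), and from 27046061 to 27047766 there were 31 and 51, -0.64 (-1.33 to 0.04). In all, 5 of the 48 counting intervals did not include the median, 10.4%, where 6.80% of such intervals over all chromosomes do not include the genome's median. The fifth of these is the tallest site of the chromosome, with 417 XPB and 317 XPD fragments, 0.48 (0.26 to 0.69) relative to the median. None of the intervals was adjusted for the number of pairs or for picking the extremes.

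Within a list the summits lay close together. The nearest other summit of the same list was a median of 10321 bp away for XPB and 13849 bp for XPD, against 14463 bp and 20618 bp on the other autosomes. Another summit lay within 10 kb of 636 XPB summits, 49.3% (46.5 to 52.0), where 41.8% of all XPB summits have one. It did so for 375 XPD summits, 41.2% (38.0 to 44.5), where 34.5% of all XPD summits do. Spacing was not adjusted for the higher density of chromosome 17. On the short arm the shares were 42.8% (37.1 to 48.7) for XPB and 37.2% (30.3 to 44.4) for XPD. On the long arm they were 51.2% (48.0 to 54.3) and 42.3% (38.6 to 46.0).

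**Figure D5:**
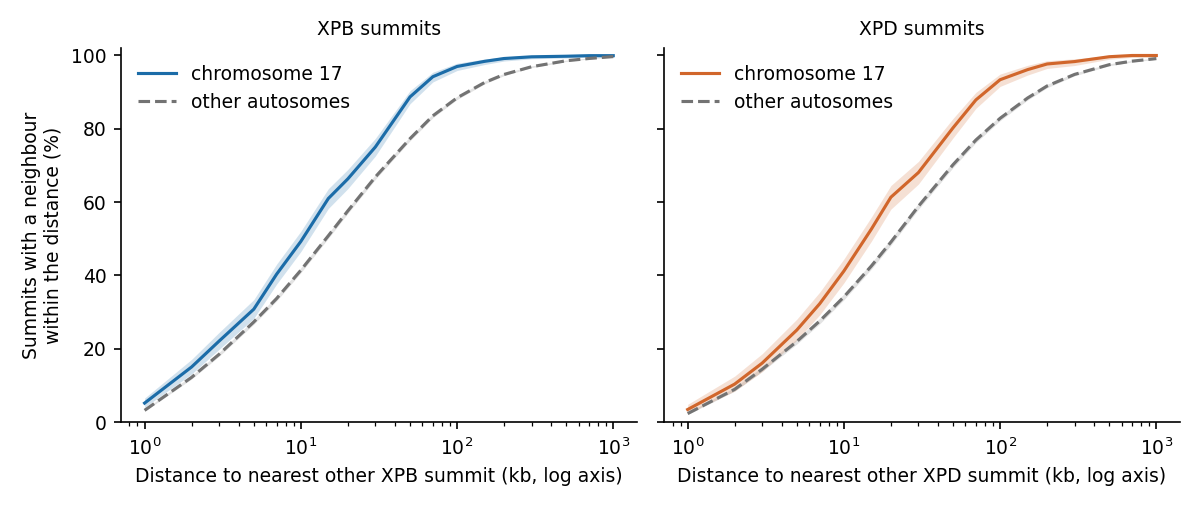
Percentage of XPB summits (left) and XPD summits (right) with another summit of the same list within a given distance (kb, log axis), on chromosome 17 (solid) and the other autosomes (dashed), with exact 95% binomial intervals shaded. At 10 kb the chromosome 17 curves are at 49.3% for XPB and 41.2% for XPD.

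Close spacing mostly meant pairs or small groups of peaks. When summits no more than 10 kb from the next were joined, the XPB peaks formed 902 groups, of which 655 were single peaks and 14 held 5 or more. The XPD peaks formed 685 groups, of which 535 were single and 5 held 5 or more. The largest XPB group had 8 peaks over 44.0 kb, from 75275446 to 75319463, with low summits of 9 to 13 fragments, and 5 of the 8 had an XPD partner. The largest XPD group had 8 peaks over 35.2 kb, from 48123923 to 48159143. It coincided with the second largest XPB group, 7 peaks from 48123512 to 48151403, and both contain the broad peaks that start at 48139037 for XPB, described above. At the other end of the range, 13.3% of the distances between successive XPB summits and 21.2% of those between successive XPD summits were 100 kb or more. No values of the other autosomes were set beside these groups and distances, so neither is shown to be particular to chromosome 17.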

How the data were processed

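The submitters aligned reads to hg19 with Bowtie 0.12.7 and called peaks with MACS 1.4, per the submitters' processing notes. Other caller settings, and whether the input served as control, are not given in the sources used here. Each ChIP has its own list, not pooled. The deposited score and the deposited summit signal (pileup height, whole numbers, not scaled to depth) have no header, and their meanings follow the usual MACS layout. Peaks were joined to summits by name and written as 1-based positions. Overlap meant at least 1 bp. Densities used the span from 2 Mb on chromosome 17, and from the first summit on other autosomes, to the last summit. The overlap, spacing and interval functions were tested on simulated data. Members, named sites and lists were chosen with earlier results of these data known. Named sites are the 10 tallest summits of each list, the 5 highest-scoring peaks of each without a partner, the 5 tall pairs farthest from the median ratio, the 5 fullest windows (ties kept) and all empty ones; others were picked after their values were seen. Tools were Python 3.11.15, numpy 2.4.6, pandas 2.3.3, scipy 1.17.1 and matplotlib 3.10.9.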

Additional observations from a re-analysis of the deposited data

How the results depend on the processing

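Of 64 alternative values for 14 results, 27 stayed within the counting interval (for window counts, within 1.5 times) of the reported value, 36 moved outside it and 1 changed sign. Of the 27, 3 could not move, since equal length leaves the XPD list untouched. Partners were found for 22.9% of XPB and 32.4% of XPD peaks when both had to overlap by 50%, for 18.4 and 26.0% when summits had to lie within 250 bp, 33.7 and 54.2% at scores of at least 200, 44.2 and 65.0% at scores of at least 300, and 37.1 and 36.0% with lists of equal length. At scores of at least 200 the number ratio was 1.67 and the XPB arm ratio 0.698, and at 300 the XPD arm ratio was 0.936. With both lists limited to 300 before pairing, the median log2 height ratio was 0.032 (-0.12 to 0.12), an interval that includes the reported -0.08. Spearman's correlation of the heights was 0.67 with summits within 250 bp, 0.69 at 200 and 0.72 at 300, and Pearson's r of log2 heights was 0.79. The median summit distance was 32 bp with summits within 250 bp, 59 bp at 200 and 33.5 bp at 300. The share with a neighbour within 10 kb was 41.7% for XPB and 28.7% for XPD at 200, 32.5 and 27.9% at 300, and for XPB 46.2% with lists of equal length. It was 30.8 and 25.2% within 5 kb and 71.2 and 65.4% within 25 kb. The highest number in any 1 Mb window, taken for each list separately, was 25 XPB and 20 XPD peaks at 200, and 11 and 9 at 300. At 300 the window from 48 to 49 Mb held 11 XPB and 6 XPD peaks. The windows with 9 XPD peaks were those from 41 to 42 and from 43 to 44 Mb. The density ratio to the other autosomes was 2.45 for XPB at 200, and 2.46 for XPB and 3.02 for XPD at 300. Fewer peaks remain at a higher threshold, which lowers counts by construction. The cause of the other shifts, those of the spacing shares among them, was not tested. No arm ratio crossed 1. No paired analysis was possible because each antibody has 1 library. Unknown depth and the score floor limit what an absent peak shows.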

Other observations

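A few sites on chromosome 17 had tall summits but modest scores in both lists. The median was 5.43 fragments per 100 units of score for XPB and 6.30 for XPD. The XPB peak from 33477944 to 33478492 reached 22.5, the highest XPB value on the chromosome, with 57 fragments at a score of 253.3, and its XPD partner reached 23.0, the highest XPD value there, with 43 fragments at 187.2. At the last group of summits before the centromere, the XPB peak from 21902951 to 21903403 reached 13.6 (46 fragments, score 337.1) and its XPD partner 17.1 (53 fragments, score 309.1). These narrow peaks, 427 to 642 bp wide, had summits 1 to 7 bp apart between the lists. The XPD peak from 21906110 to 21906514, 25 fragments at a score of 165.9, lay 704 bp from another XPD summit of that group and reached 15.1. The input level at these sites was not tested.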
